A study of Mus musculus with 9 samples.

Results

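The hnRNP and SR splicing factors were examined in RAW264.7 cells, a mouse macrophage line, transfected with control (NC) siRNA, SFRP2 siRNA or RAB6A siRNA. Members were the protein-coding genes of GENCODE M21 with a symbol that begins with Hnrnp, or with Srsf and a digit. The rule took 31 of the 28137 genes of the table, 20 of them hnRNP genes and 11 SR genes. Each group held 3 libraries. Per the labels, the cells of all 9 libraries received 60 nM siRNA for 6 h and then complete medium for 12 h. Lipopolysaccharide (LPS, a bacterial cell wall component that activates macrophages) followed at 100 ng/ml for 24 h before RNA extraction. The paper's text gives another siRNA dose and medium and names IFN-γ beside LPS, and the labels are followed here. Titles of the SFRP2 siRNA libraries number the siRNA itself, and the paper's supplement lists 3 siRNA sequences beside NC under the same numbers. Whether the numbers of the libraries stand for these different siRNAs or for replicates of a mixture was not stated, and they were treated as replicates. The paper's methods speak in general of 3 or more independent experiments. No source says of these libraries that those of a group came from separate cultures, so that p-values measure only the spread between these libraries.

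Heterogeneous nuclear ribonucleoproteins (hnRNPs) coat nascent transcripts in the nucleus, and many of them hold back the use of nearby splice sites. SR proteins carry a domain rich in arginine and serine, bind exonic enhancers and recruit the spliceosome, so that the balance between both families helps to set which exons enter the mRNA. SR proteins are moved into the nucleus and activated by kinases that phosphorylate this domain. In macrophages, splicing and RNA decay under the control of these proteins shape how fast inflammatory transcripts such as Il6 mature after LPS.

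The depth ranged from 32758729 to 47149258 reads per library, taken from the FPKM steps of genes with few reads. Macrophage markers were present in every library (8 of 8 genes, summed FPKM 4457 to 4909 with NC, 3945 to 4263 with SFRP2 siRNA and 3921 to 4074 with RAB6A siRNA), and the 11 of 14 markers of other cell types found in the table summed to 1.80 to 3.39 FPKM, none of them at 0 in every library. Sfrp2 had 2 reads in each NC library and 2 to 4 reads in each SFRP2 siRNA library, which is too few to check the labels of that group. Rab6a was measured at 24.3, 27.3 and 25.5 FPKM with NC and at 21.2, 20.7 and 20.4 FPKM with RAB6A siRNA, a log2 fold change of -0.31 (SE 0.06; adjusted p = 0.0024, limma). The values did not overlap, and the fall of the targeted mRNA was small beside those of many members described here. The RAB6A siRNA libraries stood apart from the other 6 in other ways. The mitochondrial transcript mt-Co1 took 8.63% to 9.74% of their reads, against 3.49% to 4.29% in the others. The summed FPKM of 6 LPS response genes was 1788 to 1789.7 in them, against 3731 to 4207 in the others. The difference was mostly that of Acod1 (619 to 629 against 2211 to 2530.0 FPKM) and Tnf (624 to 692 against 977 to 1096 FPKM), and Il6 and Cxcl10 were also lower, while Nos2 lay at 356 to 421 against 297 to 368 FPKM and Il1b at 16.2 to 18.5 against 12.2 to 15.7 FPKM. The macrophage markers, whose sum is mostly Cd68 and Cd14, did not move together. Lyz2 lay at 196 to 239 against 745 to 908 FPKM, Csf1r at 25.7 to 28.0 against 63.4 to 79.3 FPKM and Fcgr1 at 33.6 to 45.0 against 54.0 to 67.7 FPKM. Adgre1, Cd68 and Itgam overlapped with the other libraries. Cd14 (1795 to 2107 against 1443 to 1795 FPKM) and Ptprc (19.5 to 21.4 against 17.8 to 19.5 FPKM) were not lower. The part of these shifts in the results below was not tested.

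Among the members, upstream sequence is shown for Hnrnpm and Srsf6, an hnRNP gene and an SR gene with large falls in RAB6A siRNA libraries, for Hnrnpa3, the member that was called higher there, and for Srsf2, an SR gene that was not called. Each run holds the 250 bases before the RefSeq transcription start (assembly GRCm38.p6), 5′ to 3′ on the strand of the gene. Capitals mark a match to CACGTG or TATAAA. That of Hnrnpm is chr17:33685459-33685708 (− strand), inside the GENCODE bounds of the gene, that of Srsf6 is chr2:162931258-162931507 (+ strand), that of Hnrnpa3 is chr2:75659009-75659258 (+ strand) and that of Srsf2 is chr11:116853095-116853344 (− strand).
Hnrnpm: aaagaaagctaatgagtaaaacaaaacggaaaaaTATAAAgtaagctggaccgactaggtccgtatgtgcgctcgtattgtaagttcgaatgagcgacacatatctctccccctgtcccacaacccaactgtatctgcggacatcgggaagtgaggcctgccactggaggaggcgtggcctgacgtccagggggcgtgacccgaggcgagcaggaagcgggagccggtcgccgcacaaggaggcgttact
Srsf6: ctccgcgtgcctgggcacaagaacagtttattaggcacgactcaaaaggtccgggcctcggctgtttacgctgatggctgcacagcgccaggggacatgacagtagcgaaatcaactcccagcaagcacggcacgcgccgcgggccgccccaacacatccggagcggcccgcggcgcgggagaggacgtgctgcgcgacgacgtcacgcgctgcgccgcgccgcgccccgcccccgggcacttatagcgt
Hnrnpa3: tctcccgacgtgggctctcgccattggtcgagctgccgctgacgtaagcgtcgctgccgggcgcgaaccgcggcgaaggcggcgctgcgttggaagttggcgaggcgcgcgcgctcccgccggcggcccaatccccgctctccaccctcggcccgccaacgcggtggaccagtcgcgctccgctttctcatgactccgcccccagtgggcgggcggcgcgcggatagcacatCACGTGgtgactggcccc
Srsf2: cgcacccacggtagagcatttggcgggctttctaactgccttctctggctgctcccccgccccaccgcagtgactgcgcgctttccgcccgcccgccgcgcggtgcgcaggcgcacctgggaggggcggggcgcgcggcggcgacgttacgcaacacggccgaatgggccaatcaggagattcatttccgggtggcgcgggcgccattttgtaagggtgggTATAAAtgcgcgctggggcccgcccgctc

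In Hnrnpm the TATAAA begins 216 bases before the start, and its CACGTG lies after the run shown. In Srsf2 the TATAAA begins 29 bases before the start, which is where a TATA box usually lies. In Hnrnpa3 a CACGTG, the E-box letters bound by factors such as MYC and USF, lies 18 bases before the start, and no match to either motif was found in the run of Srsf6. These motifs and CCGGAAG were searched on both strands of windows from 250 bases before to 50 bases after the start, and 29 of the 31 members had such a window (Hnrnpll and Hnrnpul2 had none). CACGTG was found in 5 of 29 members (Hnrnpa3, Hnrnpd, Hnrnpf, Hnrnph2 and Hnrnpm) and in 8.09% of the 27025 genes with a window. CCGGAAG, the letters of an ETS site, was found in 6 members (Hnrnpd, Hnrnpf, Srsf4, Srsf5, Srsf7 and Srsf11) and in 9.93% of genes. TATAAA was found in 4 members (Hnrnpab, Hnrnpm, Srsf2 and Srsf3) and in 15.7% of genes. None of these motifs contains another. Of the 5 members with CACGTG, Hnrnpa3 was higher and the other 4 were lower in RAB6A siRNA libraries. Lower calls there were also common without regard to the motif, at 73.3% of the 30 members tested and 36.5% of all genes tested. The windows of members were rich in G and C, with a median of 68.3% against 52.7% over all windows, and had a median ratio of observed to expected CpG of 0.970 against 0.384. CACGTG and CCGGAAG each hold a CpG, and the genes with a window were not limited to those tested for expression. The shares over genes are thus an unlike background for the members, and the part of base composition in them was not tested.

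Levels are given as FPKM, which is per length, so that levels of different genes can be set side by side, but with a limit. The length is that of all annotated exons of a gene together, which can exceed its longest transcript. For Hnrnpll it was 11677 bases, against 4651 for the longest transcript, and for Srsf9 it was 1653 against 1392. Orders and sums across genes depend on this length, while comparisons of the same gene between groups do not. The members were abundant in NC libraries. Their median was 37.4 FPKM against 5.04 FPKM over all genes tested, 27 members lay above that median, and 15 lay among the top 10% of genes. The highest hnRNP gene was Hnrnpa1, a shuttling repressor of splice sites, at 294, 317 and 316 FPKM with NC. It was followed by Hnrnpa2b1 at 165 ± 6.76, Hnrnpf at 157 ± 1.76, Hnrnpab at 130.5 ± 4.42 and Hnrnpu at 92.7 ± 6.47 (mean ± SD, n = 3). The libraries of Hnrnpa2b1 and Hnrnpf overlapped. These 5 genes made up 61.9% of the summed hnRNP FPKM. The lowest hnRNP genes in NC were Hnrnpr (8.34 ± 0.425), Hnrnpll (4.77 ± 0.103) and Hnrnpa3 (2.86 ± 2.24). Among the SR genes, Srsf5 was the highest at 134 ± 3.34 FPKM, and it alone made up 35.2% of the summed SR FPKM. Srsf9 followed at 53.0 ± 0.880 and Srsf1 at 40.7 ± 4.07, and Srsf4 was the lowest SR gene tested at 4.50 ± 0.299. Srsf12, a relative of Srsf10, was listed at 0 in 8 libraries and had 1 read in RAB6A siRNA replicate 2. It did not pass the filter on low values (mean FPKM of at least 0.5), and 30 members were tested in every comparison.

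**Figure D1:**
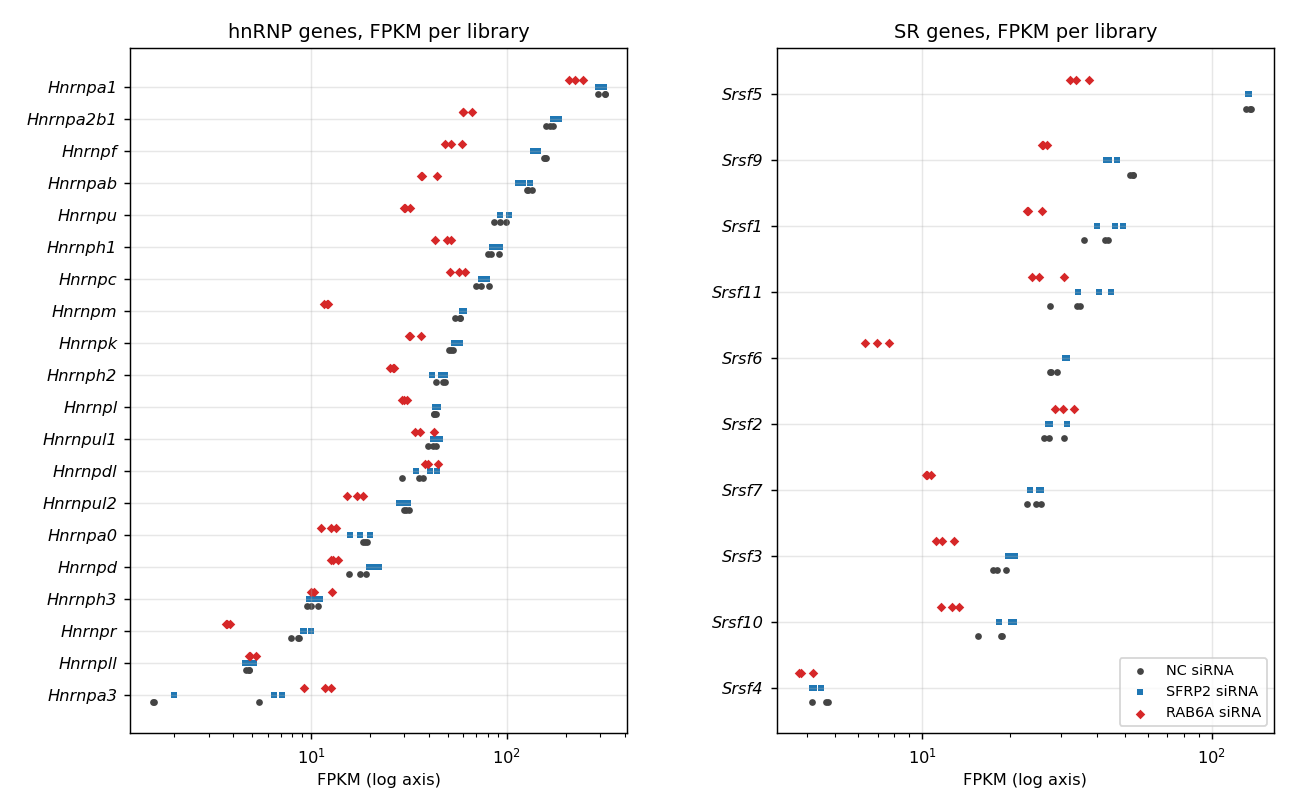
FPKM of the 30 members tested (log axis) in each library of NC siRNA (black circles), SFRP2 siRNA (blue squares) and RAB6A siRNA (red diamonds), with hnRNP genes on the left and SR genes on the right, ordered by the NC mean. RAB6A siRNA libraries lie to the left of both other groups for most members, as for Hnrnpm at 11.6 to 12.2 against 54.4 to 60.2, and to the right for Hnrnpa3.

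RAB6A siRNA was compared with NC to ask which members differed in a group that the study's text does not describe. Most members were lower with RAB6A siRNA. Of 30 members tested, 22 were called lower, 1 was called higher and 7 were not called (limma on log2(FPKM + 0.1), adjusted p under 0.05). The background was large, since 74.1% of all 12712 genes tested were called, 36.5% lower and 37.6% higher. Against it, 73.3% of members were lower, and the median log2 fold change was -0.63 for members and 0.03 for all genes. With median-of-ratios scaling, quantile normalization or a correction for GC content and length, 21 to 23 members were called lower. The libraries of RAB6A siRNA and NC did not overlap for 22 members that were lower and 2 that were higher, and among all genes 38.2% were lower and 39.2% higher without overlap. With a log2 fold change under -1 as well, 10 members were called, and 12.8% of all genes were. In bulk RNA, fewer cells with a transcript and less of it per cell cannot be told apart. A fold change here is a ratio of FPKM + 0.1.

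Of the 20 hnRNP genes, 15 were lower, 1 was higher and 4 were not called, with a median log2 fold change of -0.62. The largest fall was that of Hnrnpm (ENSMUSG00000059208, chromosome 17, 33646233 to 33686860, GRCm38), which binds GU-rich introns and is known to slow the splicing of Il6 in macrophages. Hnrnpm was measured at 54.4, 57.7 and 57.5 FPKM with NC, at 59.0, 59.0 and 60.2 with SFRP2 siRNA, and at 11.6, 12.2 and 12.1 with RAB6A siRNA. The RAB6A siRNA libraries were all far below the other 6, and Hnrnpm was 4.69-fold lower than with NC (log2 fold change -2.23, SE 0.05; adjusted p = 5.1e-07, limma). The exons of Hnrnpm overlap those of March2 over 14.7% of their length, and whether reads were counted by strand was not stated.

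Hnrnpab, a relative of the AU-rich element binders that also binds DNA, was at 135, 129 and 127 FPKM with NC and at 36.9, 43.9 and 36.3 with RAB6A siRNA. The groups were far apart, a 3.35-fold difference (log2 fold change -1.74, SE 0.08; adjusted p = 2.6e-06, limma). Its exons overlap those of Phykpl over 29.1% of their length. Hnrnpu, a nuclear matrix protein that binds both chromatin and RNA, fell from 92.7 ± 6.47 to 30.6 ± 1.27 FPKM (log2 fold change -1.59). Its relatives followed it in part. Hnrnpul2 fell from 30.8 ± 0.803 to 17.0 ± 1.67 FPKM (-0.86), while Hnrnpul1 was at 41.7 ± 1.81 and 37.5 ± 4.47 FPKM and was not called (-0.16, SE 0.09; adjusted p = 0.143), although it was called without RAB6A siRNA replicate 3 (-0.25).

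The H and F proteins bind runs of guanines. Hnrnpf was measured at 157, 155 and 158 FPKM with NC, at 136, 144 and 143 with SFRP2 siRNA, and at 48.4, 52.1 and 58.9 with RAB6A siRNA. The RAB6A siRNA libraries were the lowest, by 2.96-fold against NC (log2 fold change -1.56, SE 0.08; adjusted p = 3.0e-06, limma). Of the longest Hnrnpf transcript, 59.5% matched transcripts of 7 other genes at 98% identity or more, so that its reads may be shared with copies. Hnrnph1 (84.8 ± 5.64 to 48.3 ± 4.87 FPKM) and Hnrnph2 (46.4 ± 2.78 to 26.0 ± 0.720 FPKM) fell by similar amounts, with log2 fold changes of -0.82 and -0.83. Hnrnph3, a shorter relative, was at 10.1 ± 0.624 FPKM with NC and at up to 12.8 FPKM with RAB6A siRNA, with overlap, and was not called (0.11, SE 0.10), but was called higher after a correction for GC content and length (0.41).

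The A and B proteins make up much of the core particle on nascent RNA. Hnrnpa1 was at 294, 317 and 316 FPKM with NC, at 291, 305 and 313 with SFRP2 siRNA, and at 209, 222 and 246 with RAB6A siRNA. It stayed the most abundant member in every group, but without overlap between RAB6A siRNA and NC (log2 fold change -0.46, SE 0.08; adjusted p = 0.0011, limma). The value was -0.17 after a correction for GC content and length and -0.91 after quantile normalization, with a call in both. Hnrnpa2b1, which is also known as a nuclear sensor of viral DNA, was at 166, 172 and 158 FPKM with NC, at 173, 185 and 179 with SFRP2 siRNA, and at 59.5, 60.0 and 66.8 with RAB6A siRNA. Its fall of 2.66-fold (log2 fold change -1.41, SE 0.07) was larger than that of Hnrnpa1. Hnrnpa0, an intronless member of this subfamily, fell from 18.9 ± 0.496 to 12.4 ± 1.13 FPKM (-0.61), and Hnrnpc, which binds runs of uridines, fell from 74.9 ± 5.95 to 56.6 ± 5.14 FPKM (-0.40). The call of Hnrnpc was lost after a correction for GC content and length (-0.10).

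Hnrnpa3 (ENSMUSG00000059005, chromosome 2, 75659261 to 75669407) went the other way. It was measured at 5.44, 1.55 and 1.58 FPKM with NC, at 6.43, 7.09 and 1.99 with SFRP2 siRNA, and at 12.6, 9.22 and 11.8 with RAB6A siRNA. Every RAB6A siRNA library was above all others, while 3 of the other 6 libraries lay at 5.44 to 7.09 FPKM and 3 at 1.55 to 1.99, a split that crosses both groups. Against NC the log2 fold change was 2.17 (SE 0.44; adjusted p = 0.0028, limma), or 4.51-fold higher, and without NC replicate 1 it was 2.75. Its depth was not low, with 362 to 2474 reads per library. Of its longest transcript, 28.9% matched 15 other genes, Taok3 and genes named only as predicted ones, so that its reads may be shared with copies.

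Hnrnpr, a partner of the mRNA transport machinery, fell from 8.34 ± 0.425 to 3.76 ± 0.103 FPKM (-1.13). Hnrnpk, which binds runs of cytidines, fell from 52.0 ± 1.34 to 33.3 ± 2.68 FPKM (-0.64), and Hnrnpl, which binds CA repeats, fell from 42.8 ± 0.529 to 29.8 ± 0.910 FPKM (-0.52). Hnrnpll, a relative of Hnrnpl known for the splicing of Ptprc in lymphocytes, was at 4.77 ± 0.103 and 4.97 ± 0.214 FPKM and was not called (0.06, SE 0.07). Hnrnpd, which binds AU-rich elements of cytokine mRNAs and speeds their decay, was at 17.8, 19.1 and 15.7 FPKM with NC and fell to 13.7, 12.7 and 13.0 FPKM with RAB6A siRNA (-0.41). Its relative Hnrnpdl was at 37.5, 35.8 and 29.0 FPKM with NC and at 39.7, 38.1 and 44.5 with RAB6A siRNA. These values did not overlap, and Hnrnpdl was not called (0.26, SE 0.11; adjusted p = 0.058, limma), although it was called higher in 5 of the 19 fits tried, among them those corrected for GC content and length (0.60) and the fit without NC replicate 1 (0.33).

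**Figure D2:**
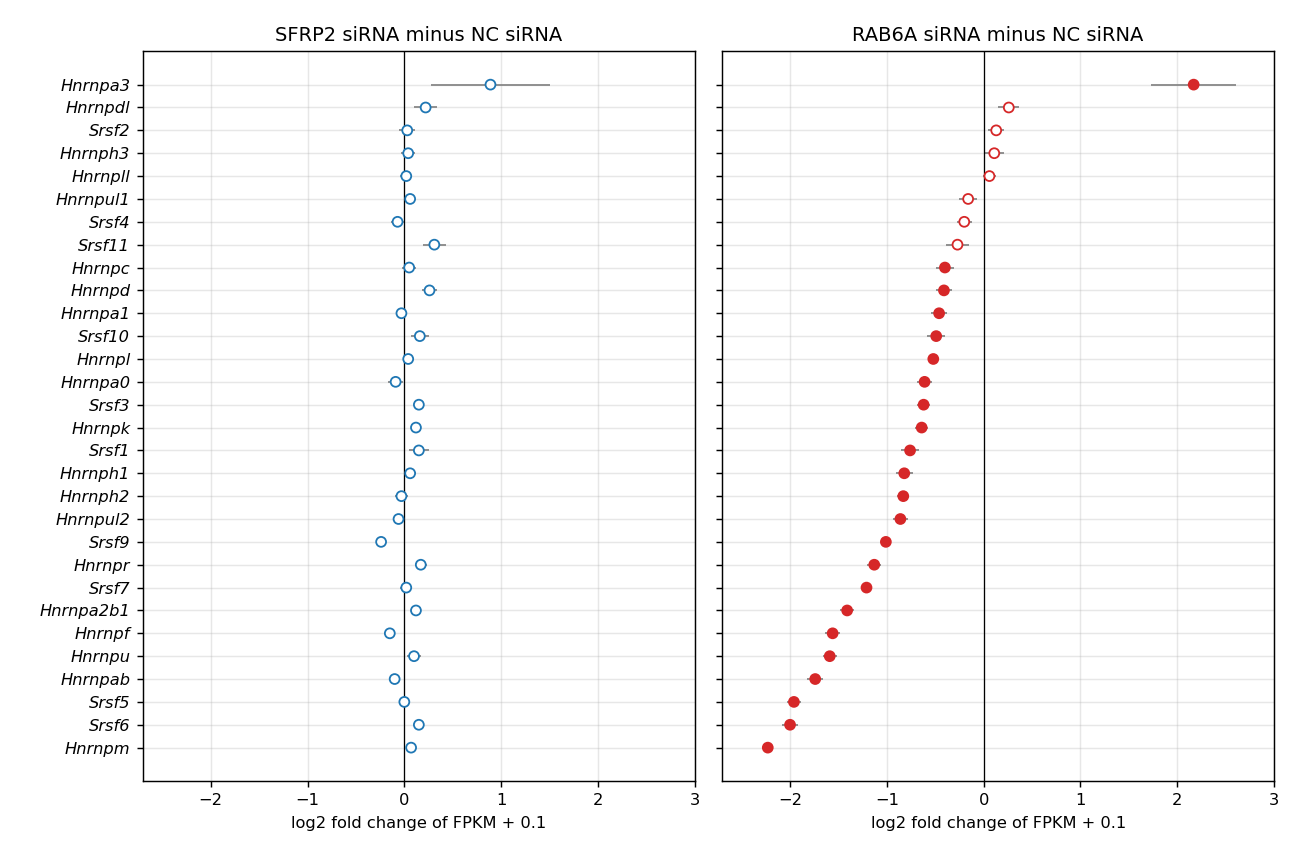
Log2 fold change of FPKM + 0.1 with its SE (bars) for the 30 members tested, SFRP2 siRNA minus NC (left, blue) and RAB6A siRNA minus NC (right, red). Filled points have an adjusted p under 0.05. On the right 22 members are filled to the left of 0, from -0.40 for Hnrnpc to -2.23 for Hnrnpm, and Hnrnpa3 is filled at 2.17. On the left no point is filled.

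Of the 10 SR genes tested, 7 were lower, none was higher and 3 were not called, with a median log2 fold change of -0.69. Srsf6 (ENSMUSG00000016921, chromosome 2, 162931528 to 162937121), which binds enhancers through a pair of RNA recognition motifs, fell the most of the SR genes together with Srsf5. It was at 29.2, 27.5 and 27.8 FPKM with NC, at 31.1, 31.0 and 31.6 with SFRP2 siRNA, and at 7.68, 6.95 and 6.35 with RAB6A siRNA. All RAB6A siRNA libraries were below the others, by 4.0-fold against NC (log2 fold change -2.0, SE 0.08; adjusted p = 1.6e-06, limma). Srsf5 (ENSMUSG00000021134, chromosome 12, 80945504 to 80950507), its closest relative among the members with Srsf4, was at 131, 137 and 135 FPKM with NC, at 133, 134 and 134 with SFRP2 siRNA, and at 33.8, 32.3 and 37.7 with RAB6A siRNA. Its fall of 3.88-fold (log2 fold change -1.96, SE 0.07; adjusted p = 1.2e-06) was within the SE of that of Srsf6, and was the larger one with quantile normalization and after the correction for GC content and length (-1.76 against -1.69). Of the longest Srsf5 transcript, 23.5% matched 1 other gene. Besides Hnrnpf and Hnrnpa3, larger shares were found for Hnrnpk (46.4%, 1 other gene), Hnrnpa1 (30.9%, 5 genes) and Srsf3 (28.5%, 2 genes). Reads of these members may also be shared with copies. Srsf4, in contrast, was at 4.50 ± 0.299 and 3.91 ± 0.238 FPKM and was not called (-0.20, SE 0.08; adjusted p = 0.0652, limma). It was called in 4 of the 19 fits tried, without NC replicate 3 (-0.25), without RAB6A siRNA replicate 2 (-0.24), with quantile normalization (-0.23) and with all 9 libraries in the fit (-0.20). Its exons overlap those of Gm12992 over 43.0% of their length. Exons of Hnrnpf and Srsf2 overlap those of other genes over 26.5% and 25.3% of their length.

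Srsf9 and Srsf1 are close relatives, and Srsf1 is the SR protein described first and best. Srsf9 was at 52.0, 53.5 and 53.5 FPKM with NC, at 43.2, 44.2 and 47.0 with SFRP2 siRNA, and at 25.8, 26.1 and 27.0 with RAB6A siRNA. The 3 groups did not overlap, and with RAB6A siRNA it was 2.01-fold lower than with NC (log2 fold change -1.01, SE 0.05; adjusted p = 2.9e-06, limma). Srsf1 was at 43.6, 42.6 and 36.1 FPKM with NC, at 46.4, 49.3 and 40.0 with SFRP2 siRNA, and at 25.9, 23.2 and 23.0 with RAB6A siRNA. RAB6A siRNA libraries were again the lowest (log2 fold change -0.76, SE 0.09; adjusted p = 1.5e-04), while NC and SFRP2 siRNA overlapped.

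Srsf7 and Srsf3 link splicing to the export of mRNA. Srsf7 fell from 24.5 ± 1.39 to 10.5 ± 0.209 FPKM (-1.21). Srsf3, the smallest SR protein, was at 18.1, 19.4 and 17.5 FPKM with NC, at 20.3, 20.9 and 19.8 with SFRP2 siRNA, and at 11.7, 11.1 and 12.9 with RAB6A siRNA. It was lower with RAB6A siRNA and highest with SFRP2 siRNA, and its log2 fold change against NC was -0.62 (SE 0.07). Srsf10, which acts as a repressor when dephosphorylated, fell from 17.7 ± 1.89 to 12.5 ± 0.891 FPKM (-0.49). Srsf11 was at 32.2 ± 4.10 and 26.7 ± 3.69 FPKM, with overlapping libraries, and was not called (-0.27, SE 0.12; adjusted p = 0.0838, limma), although it was called without NC replicate 3 or without RAB6A siRNA replicate 3 (-0.38 in both), and with voom (-0.26). Srsf2, known for its part in transcription pausing as well as in splicing, was at 30.8, 26.2 and 27.3 FPKM with NC and at 33.4, 30.5 and 28.6 with RAB6A siRNA. These values overlapped and Srsf2 was not called (0.13, SE 0.08; adjusted p = 0.185), but was called higher after a correction for GC content and length (0.39) and after quantile normalization (0.29). Genes of both families make isoforms that carry a premature stop and are degraded, and a value per gene does not tell these from the coding isoforms.

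The summed levels of both families were lower with RAB6A siRNA. The 20 hnRNP genes summed to 1391, 1400.1 and 1351 FPKM with NC, to 1394, 1425 and 1371 with SFRP2 siRNA, and to 730.3, 753 and 822 with RAB6A siRNA. The RAB6A siRNA sums were 55.6% of the NC mean and did not overlap with the other groups. The 11 SR genes summed to 388, 388 and 368 FPKM with NC, to 397, 402 and 380.3 with SFRP2 siRNA, and to 191, 180.4 and 193 with RAB6A siRNA, which was 49.3% of the NC mean. The SFRP2 siRNA sums were 101% and 103% of the NC means and overlapped with NC. As a share of all FPKM of a library, the hnRNP genes took 0.375% with NC, 0.380% with SFRP2 siRNA and 0.189% with RAB6A siRNA, and the SR genes took 0.104%, 0.107% and 0.0462%. All FPKM of a library summed to 399883.2 to 410876.9 with RAB6A siRNA, against 361816.7 to 373756.4 in the others. In these totals mt-Co1 had a mean of 58699.6 FPKM with RAB6A siRNA and 23215 with NC. The shares thus fell by more than the sums.

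**Figure D3:**
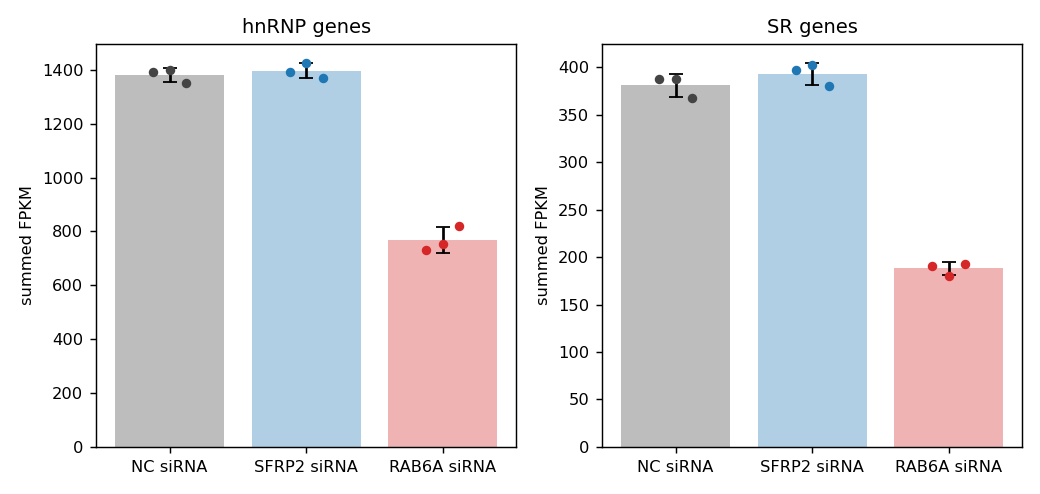
Summed FPKM of the 20 hnRNP genes (left) and the 11 SR genes (right) in each library (points), with the mean (bars) and SD (error bars) of 3 libraries per group. NC and SFRP2 siRNA libraries lie between 1351 and 1425 for the hnRNP genes and between 368 and 402 for the SR genes, and RAB6A siRNA libraries lie between 730.3 and 822 and between 180.4 and 193.

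The make-up of each family also differed. Hnrnpa1 took 22.4% ± 1.14 of the hnRNP sum with NC and 29.4% ± 0.726 with RAB6A siRNA, and Hnrnpdl took 2.47% ± 0.286 and 5.30% ± 0.211. The share of Hnrnpm went from 4.09% ± 0.174 to 1.56% ± 0.0741. Srsf5 took 35.2% ± 1.58 of the SR sum with NC and 18.4% ± 1.00 with RAB6A siRNA, while Srsf2 took 7.37% ± 0.593 and 16.4% ± 1.40 and Srsf11 took 8.42% ± 0.825 and 14.2% ± 1.58 (mean ± SD, n = 3). None of these shares overlapped between NC and RAB6A siRNA libraries. A share is relative to its family sum, and can rise without a rise of the gene. In FPKM, Hnrnpa1 was called lower with RAB6A siRNA, and Hnrnpdl, Srsf2 and Srsf11 were not called. The members named here were picked, and no such share was computed for other genes. With RAB6A siRNA, Srsf2 had the next largest mean share after Srsf5, while the shares of Srsf11 (from 13.2%) and Srsf9 (13.5% to 14.4%) overlapped. With SFRP2 siRNA, Srsf5 took 34.1% ± 1.08 and Srsf2 took 7.30% ± 0.570, and both ranges overlapped with NC. Further shares with SFRP2 siRNA also overlapped with NC, such as that of Hnrnpa1 (20.9% to 22.8% against 21.2% to 23.4%), and some did not. Among those without overlap, Srsf9 took 10.9% to 12.4% against 13.4% to 14.5% of the SR sum. Srsf11 took 9.04% to 11.2% against 7.48% to 9.01%, and Hnrnpf took 9.79% to 10.4% against 11.1% to 11.7% of the hnRNP sum.

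Ratios within pairs of related genes were compared in the same libraries, as log2 of the ratio of FPKM + 0.1. Of 13 pairs compared, 11 did not overlap between RAB6A siRNA and NC, and 8 did not overlap between SFRP2 siRNA and NC, where no gene was called. Absence of overlap was thus common in both comparisons, and among those 8 pairs the differences with SFRP2 siRNA were at most 0.39 in size. No ratios were computed for pairs of other genes, so that these counts have no background. Of single genes, 38.2% were lower and 39.2% higher without overlap with RAB6A siRNA, and 13.9% and 10.9% with SFRP2 siRNA. The pair Srsf10 and Srsf12 was left out, with Srsf12 at 0. The smallest p that an exact permutation test of 3 libraries against 3 allows is 0.1, which adjustment over the 13 pairs raised to 0.118, so that no pair could pass the threshold. The ratio of Srsf4 to Srsf6 was at -2.61, -2.54 and -2.72 with NC and at -1.02, -0.72 and -0.72 with RAB6A siRNA, a difference of 1.80. That of Hnrnpu to Hnrnpul1 was at 1.32, 1.14 and 0.99 with NC and at -0.19, -0.26 and -0.40 with RAB6A siRNA, so that the order of the genes was reversed. Srsf3 and Srsf7 also changed order in FPKM, with a mean log2 ratio of -0.41 with NC and 0.18 with RAB6A siRNA. Which gene of a pair is the higher depends on the exon lengths used, while the difference between groups does not. These lengths were 7899 bases for Srsf3 and 3550 for Srsf7, against longest transcripts of 4010 and 2403.

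The mean log2 ratio of Hnrnpa1 to Hnrnpa2b1 was 0.90 with NC and 1.86 with RAB6A siRNA, and that of Hnrnpa1 to Hnrnpa3 was 6.96 and 4.33. The ratio of Hnrnpab to Hnrnpd was 2.89 with NC and 1.56 with RAB6A siRNA, that of Hnrnpd to Hnrnpdl was -0.95 and -1.62, and that of Hnrnpl to Hnrnpll was 3.14 and 2.56. In these pairs the gene named first was lower relative to the second with RAB6A siRNA, apart from Hnrnpa1 and Hnrnpa2b1. The ratio of Hnrnph1 to Hnrnpf was -0.89 and -0.14, that of Hnrnpul1 to Hnrnpul2 was 0.44 and 1.14, and that of Srsf1 to Srsf9 was -0.38 and -0.13. For Srsf1 and Srsf9 the difference from NC was larger with SFRP2 siRNA (0.39) than with RAB6A siRNA (0.25). The overlapping pairs were Hnrnph1 with Hnrnph2, whose mean log2 ratio was 0.87 ± 0.05 and 0.89 ± 0.17, and Srsf5 with Srsf6, at 2.25 ± 0.08 and 2.29 ± 0.23 (SD, n = 3). In both pairs each gene had fallen to a similar degree.

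**Figure D4:**
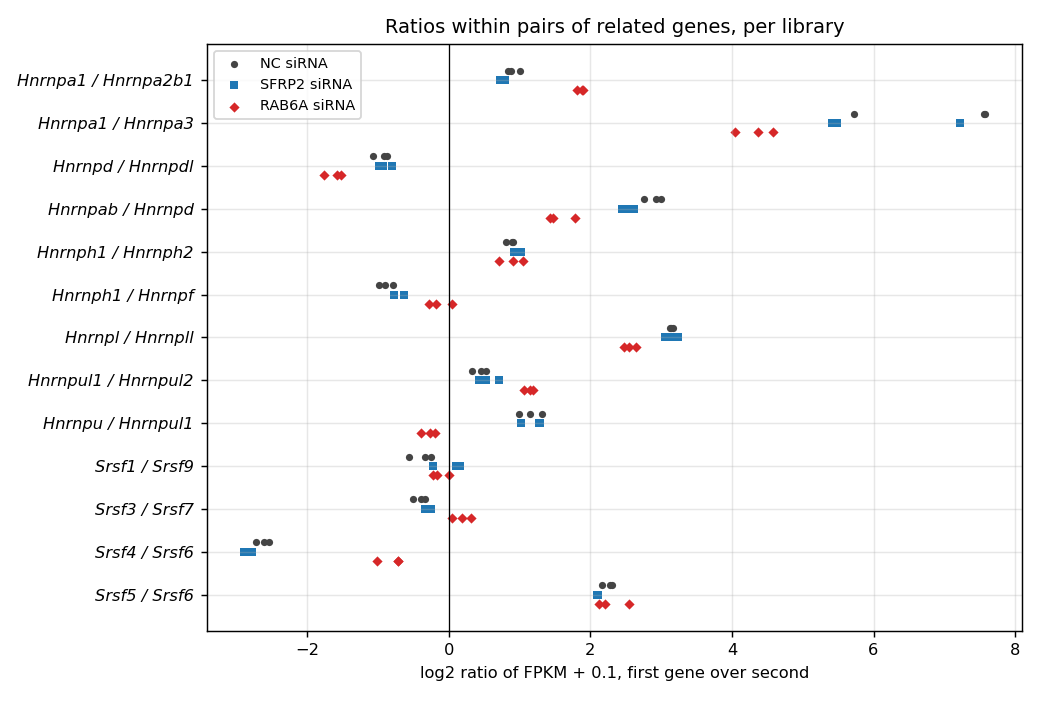
Log2 ratio of FPKM + 0.1, first gene over second, for 13 pairs of related members in each library of NC siRNA (black circles), SFRP2 siRNA (blue squares) and RAB6A siRNA (red diamonds). RAB6A siRNA libraries lie apart from NC in 11 pairs, as for Srsf4 / Srsf6 near -0.82 against -2.62, and overlap with NC for Hnrnph1 / Hnrnph2 and Srsf5 / Srsf6.

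SFRP2 siRNA was compared with NC, which is the comparison of the study's text. No member was called at an adjusted p under 0.05 with limma, nor was any of the 12017 genes tested (0%). The paper, which names DESeq2, reports differentially expressed genes in both directions here. DESeq2 was not run on the FPKM, so that the 2 results differ in method and unit. At an unadjusted p under 0.05, 6 members were higher and 2 were lower, and among all genes 7.73% were higher and 10.7% lower. With voom on the recovered reads, 0 members were called and 10 had an unadjusted p under 0.05. Over all genes, 42 were called and 2456 had an unadjusted p under 0.05. The differences were small. The median log2 fold change was 0.05 for members and -0.01 for all genes, and 21 members were above 0 and 9 below, against 47.5% of all genes above 0. The 2 groups did not overlap for 7 members that were higher and 2 that were lower, where 10.9% and 13.9% of all genes did so.

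Members are given in the order of their p. Of those that were lower, Srsf9 came first, at 43.2 to 47.0 FPKM against 52.0 to 53.5 with NC (log2 fold change -0.24, SE 0.05; limma, adjusted p = 0.165). Hnrnpf followed at 136 to 144 against 155 to 158 FPKM (-0.15, SE 0.04; limma, adjusted p = 0.182). Hnrnpab was at 131, 121 and 114 FPKM against 127 to 135, with overlap (-0.10, SE 0.06; limma, adjusted p = 0.423). On the other side, Srsf6 was at 31.0 to 31.6 FPKM against 27.5 to 29.2 (0.15, SE 0.04; limma, adjusted p = 0.188). Hnrnpd was at 21.2, 22.2 and 19.7 FPKM against 17.8, 19.1 and 15.7 (0.26, SE 0.08; limma, adjusted p = 0.199). Srsf3 was at 19.8 to 20.9 FPKM against 17.5 to 19.4 (0.15, SE 0.05; limma, adjusted p = 0.222). Apart from Hnrnpab, these genes had an unadjusted p under 0.05 and groups that did not overlap. After a correction for GC content and length the log2 fold changes were 0.06 for Srsf6, 0.15 for Hnrnpd and 0.02 for Srsf3, and -0.23 for Srsf9 and -0.13 for Hnrnpf. Hnrnpr (0.17), Srsf11 (0.31) and Hnrnpk (0.12) were the other members with an unadjusted p under 0.05. The largest log2 fold change was that of Hnrnpa3 (0.89, SE 0.61; limma, adjusted p = 0.452), whose libraries varied the most.

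Fold changes in this comparison went with the base composition of genes. Across 11903 genes, Spearman's rho between the log2 fold change and the GC content of the longest transcript was -0.482, and across the 30 members it was -0.436. With exon length, rho was 0.172 across all genes and 0.636 across members. Genes are not independent replicates, and all of these points come from the same 6 libraries. Members had a median GC content of 43.3% against 49.2% for all genes. When the values were corrected for GC content and length, the median log2 fold change of members was 0.02, 8 members changed sign and none was called. With RAB6A siRNA against NC, rho with GC content was 0.0785 across all genes and 0.117 across members, and rho with exon length was -0.214 and 0.0154. Members were longer than all genes tested there, with a median exon length of 5553 against 3711 bases.

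RAB6A siRNA was also set against SFRP2 siRNA directly. Of 30 members, 23 were lower, 1 was higher and 6 were not called, with a median log2 fold change of -0.76 (73.4% of 12764 genes called, 35.8% lower, median 0.03). Both comparisons with RAB6A siRNA share its 3 libraries. Hnrnpm had a log2 fold change of -2.30 and Srsf6 of -2.15, beside -2.23 and -2.0 against NC. For Srsf9 and Hnrnpf, which had the smallest p-values among the members that were lower with SFRP2 siRNA, it was -0.77 and -1.41, beside -1.01 and -1.56 against NC. Srsf11 was called here (-0.58, SE 0.13; adjusted p = 0.0047, limma), and it lay at 40.8, 44.9 and 34.4 FPKM with SFRP2 siRNA against 25.3, 23.9 and 30.9 with RAB6A siRNA, without overlap. Hnrnpa3 was higher (1.28, SE 0.45; adjusted p = 0.0341), a call that was lost when any of the RAB6A siRNA libraries was left out (1.19, 1.41 and 1.24 without replicates 1, 2 and 3). Without SFRP2 siRNA replicate 3 the value was 0.71. After a correction for GC content and length, Hnrnpa1 (-0.09), Hnrnpc (-0.05) and Srsf11 (-0.23) were no longer called lower, and Hnrnpdl, Hnrnph3, Hnrnpll and Srsf2 were called higher.

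Other genes of RNA splicing were counted in lists written from general knowledge, in the comparison of RAB6A siRNA with NC, where 36.5% of all genes tested were lower and 37.6% higher. RNA-binding proteins that associate with hnRNPs under other names were mostly lower. Of 37 tested, 25 were lower and 7 higher, with a median log2 fold change of -0.44. Sfpq, a paraspeckle protein, fell from 68.8 ± 1.74 to 15.6 ± 1.53 FPKM (-2.13). Pcbp4, a poly(C) binder, rose from 2.86 ± 0.138 to 6.81 ± 1.13 FPKM (1.21), and Ptbp2, a repressor best known from neurons, from 3.01 ± 0.295 to 5.84 ± 0.642 FPKM (0.93).

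Of 63 genes of the spliceosome core, 31 were lower and 11 higher, with a median of -0.24. Prpf31 (33.0 ± 1.02 to 10.6 ± 0.708 FPKM, -1.63) and Eftud2 (23.9 ± 1.45 to 8.77 ± 0.240 FPKM, -1.44), both factors of the tri-snRNP, had the largest falls. Prpf39, a U1 snRNP factor, rose from 5.25 ± 0.355 to 14 ± 1.22 FPKM (1.39), and Isy1, a factor of the catalytic spliceosome, from 1.18 ± 0.0267 to 2.12 ± 0.0401 FPKM (0.80). Among 17 factors of nonsense-mediated decay and the exon junction complex, which mark and degrade transcripts with a premature stop, 9 were lower and 4 higher, with a median of -0.36. Smg8 (15.5 ± 0.516 to 5.38 ± 0.809 FPKM, -1.52) and Magoh (97.6 ± 9.50 to 39.9 ± 3.67 FPKM, -1.29) were the lowest, and Smg9 (0.65) and Smg6 (0.39) the highest.

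The lists closest to SR protein function split evenly. Of 14 SR kinases, phosphatases and transportins, 6 were lower and 5 higher, with a median of -0.04. The kinases Clk1 (12.1 ± 0.352 to 26.8 ± 1.37 FPKM, 1.15) and Clk3 (6.80 ± 0.452 to 14.3 ± 0.173 FPKM, 1.06), which phosphorylate SR proteins in the nucleus, rose. The phosphatase subunit Ppp1cc (60.3 ± 6.06 to 29.2 ± 1.89 FPKM, -1.04) and the import receptor Tnpo1 (28.9 ± 0.710 to 15.9 ± 0.660 FPKM, -0.86) fell. Of 22 SR-like proteins, 8 were lower and 8 higher, with a median of -0.01. Bclaf1 (-1.64) and Thrap3 (-0.95), which are related in sequence, fell, and Luc7l (0.96) and Rsrp1 (0.91) rose. No gene of these 5 lists was called with SFRP2 siRNA against NC. There, 19 of the 22 SR-like genes had a log2 fold change above 0, with a median of 0.13, and 11 were higher at an unadjusted p under 0.05 while none was lower. In the spliceosome core 3 of 63 were higher and 14 lower at that level. Of all genes, 47.5% were above 0, 7.73% were higher and 10.7% lower. These counts were not corrected for GC content, which went with the fold changes of this comparison.

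**Figure D5:**
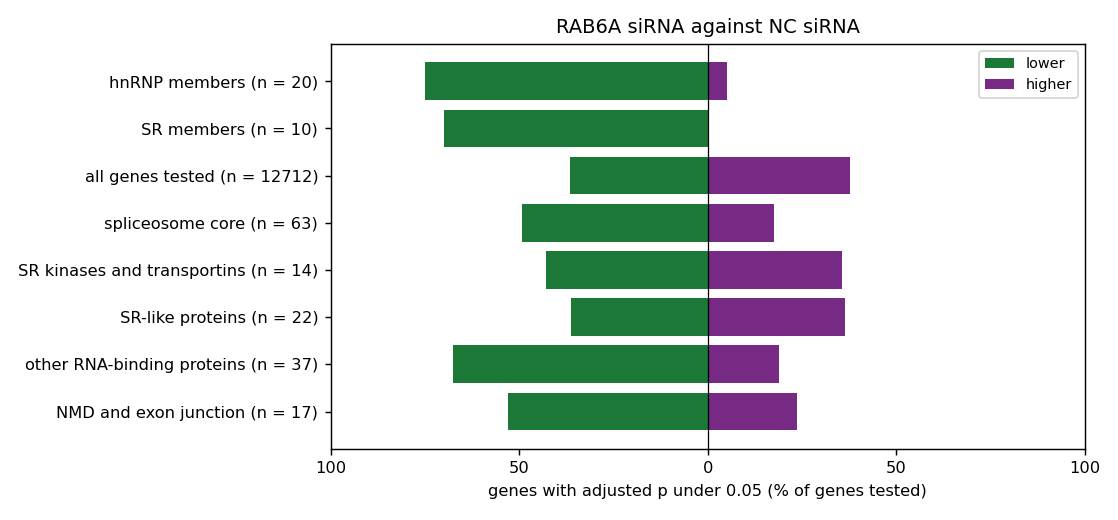
Share of genes (% of those tested) called lower (green, left) and higher (purple, right) with RAB6A siRNA against NC at an adjusted p under 0.05, for both families, all genes tested and 5 other lists of RNA splicing genes. Lower calls reach 75.0% for hnRNP genes, 70.0% for SR genes and 67.6% for other RNA-binding proteins, against 36.5% for all genes.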

How the data were processed

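RNA-seq of RAW264.7 cells was measured in 9 libraries, 3 each of NC, SFRP2 and RAB6A siRNA, grouped by their labels. The authors deposited FPKM per gene, without scaling between libraries that the sources used here state. The submitters' processing notes name HISAT2, Subread and featureCounts, and the genome build and the use of strand were not given in the sources used here. Gene names and coordinates came from GENCODE M21 on GRCm38, which named 27533 of 28137 identifiers. Upstream sequences came from RefSeq.

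FPKM times exon length gave whole reads (within 0.03 read in all 9 libraries) for 98.4% of the named genes, which gave the depth. DESeq2 is named in the paper's methods, and limma 3.58.1 in R 4.3.3 was used because the values are FPKM. The fit used log2(FPKM + 0.1) with eBayes and an intensity trend, for genes whose mean over the 6 libraries compared reached 0.5 FPKM, and p-values were adjusted by Benjamini-Hochberg over all genes tested. Fold changes on this scale understate those of low genes. Calls needed an adjusted p under 0.05. Single values were compared with exact two-sided permutation tests (Python 3.11.15, scipy 1.17.1). The scripts were tested on simulated data.

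The members, the lists of other genes and the tests were chosen with earlier results of these data known. Values of every library are given for the 3 highest members of each family in NC, for the members with the 3 largest log2 fold changes in each direction among those called with RAB6A siRNA against NC, and for the 3 smallest p in each direction with SFRP2 siRNA against NC. A few further members are given in the same way. From each list the 2 highest and 2 lowest called genes are named, except for 1 gene that is not reported here. The results were recomputed without a filter and with one at a mean of 1 FPKM, with pseudocounts of 1 and 0.01, after quantile normalization or median-of-ratios scaling, with no trend in eBayes, with a block for replicate numbers, in a fit of all 9 libraries, with voom on reads, after correcting for GC content and length (natural splines, 5 degrees of freedom) with and without that block, and without each library in turn.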

Additional observations from a re-analysis of the deposited data

How the results depend on the processing

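With RAB6A siRNA against NC, the members called lower numbered 21 to 24 under every alternative, against 22. Those called higher, Hnrnpa3 alone before, numbered 3 with quantile normalization, 2 with voom on the recovered reads, 4 with the correction for GC content and length, also with the replicate block, and 1 to 2 when a library was left out. The median log2 fold change of members was -0.49 with that correction, with or without the block, and -0.69 to -0.62 when a library was left out, against -0.63. Hnrnpc was no longer called with the correction (-0.10). Members that stayed called with it, but whose log2 fold change shrank by more than 1.5 times, were Hnrnpa1 (-0.17), Hnrnpd (-0.18), Srsf10 (-0.26), Hnrnpl (-0.34), Hnrnpk (-0.36) and Hnrnpul2 (-0.57). Members near 0 changed sign without a call, namely Hnrnpul1 with quantile normalization (0.01) and, with the correction and also with the block, Srsf11 (0.01) and Srsf4 (0.03). With RAB6A siRNA against SFRP2 siRNA, the members called higher numbered 0 without a filter, 0 with eBayes without a trend, 0 with all 9 libraries in 1 fit, 2 with quantile normalization, 5 with the correction, 5 with the correction and the block, and 0 to 1 when a library was left out, against 1. The median of members was -0.67 with quantile normalization, -0.45 with the correction, -0.45 with the correction and the block, and -0.78 to -0.72 when a library was left out, against -0.76. The cause of these shifts was not tested.

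No member was called with SFRP2 siRNA against NC under any alternative, and the summed levels and the ratios within pairs moved by less than the spread between replicates under the alternatives tried for them. Libraries that share a replicate number did not deviate together (mean correlation -0.0102 over 9 pairs, and 0.0051 over 18 pairs with different numbers), so that the numbers were not taken as a pairing. With the replicate number as a block, 1 member was higher and 22 were lower with RAB6A siRNA against NC, and 9103 genes were called in all, against 9418. In the same fit 13 members had an unadjusted p under 0.05 with SFRP2 siRNA against NC, against 8. Over all genes this count also rose, to 2988 against 2220. Depth did not limit the members tested, of which Hnrnpa3 had the fewest reads in a library (362), but it limits Srsf12.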
